A study of Mus musculus with 32 samples.

Results

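The 10 imprinted genes Igf2, H19, Dlk1, Meg3, Cdkn1c, Peg3, Peg10, Nnat, Mest and Plagl1 were read out of the 23154 genes measured in each mouse embryonic cell. They were chosen by name, with earlier results of these data known, and all 10 were detected. The shares of all genes called that are given below are not matched for expression and are no test of this list. Cells came from untreated C57BL/6J embryos at 3 stages, namely E9.5 (3 embryos), E10.5 (2 embryos) and E11.5 (2 embryos), and from 8 organs or tissues, namely the forebrain, hindbrain, heart, somite, skin, lung, liver and intestine. E9.5 embryo 2 was labelled female and the other embryos male. E9.5 embryos 1 and 2, with 572 of the cells, were sequenced on a HiSeq 2500 and the other embryos on a HiSeq 4000. Both samples of E9.5 embryo 3 pooled organs (lung with liver, and skin with intestine and somite), and that embryo had no forebrain, hindbrain or heart sample. Every other sample held a single organ, from a single embryo at E9.5 and from both embryos at E10.5 and E11.5. Organ and sample cannot be told apart in those samples. The deposited values scale each gene's unique molecular identifiers (UMIs) to 1000000 UMIs in that cell, which the study calls TPM. The reads mark the 3′ end of a molecule, so gene length does not enter these values.

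An imprinted gene is transcribed mainly from the chromosome inherited from 1 parent, and the choice is set by DNA methylation laid down in the germ line. In the mouse, Igf2, Dlk1, Peg3, Peg10, Nnat, Mest and Plagl1 are expressed from the paternal copy, and H19, Meg3 and Cdkn1c from the maternal copy. Many of these genes act on fetal and placental growth. The embryos were inbred, so the parental origin of a transcript cannot be told from these values, and each value is the total of both copies.

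Of 1916 cells, 14 pairs from 14 libraries held identical values, always under the barcodes 95 and 96, and each pair was counted as 1 cell, which left 1902. The study's quality filter kept 1805 of these. The study divided its cells into 4 major groups by the activity of transcription factor networks, here 246 hematopoietic cells (HC), 382 neuronal cells (NC), 304 epithelial cells (EC) and 869 mesoderm-derived cells (MC), and labelled 286 cells as epithelium (Epi) and 352 as mesenchyme (Mes) of intestine, liver, lung and skin. These labels were made from the same cells' expression, so a p-value between groups is not independent of the labels, whereas organ and day come from the dissection. Kept cells held 20326 to 2524348 UMIs (median 306271), and embryo medians ran from 187427 in E11.5 embryo 1 to 928653 in E9.5 embryo 2. No cell name was shared between libraries. Marker genes followed the group names. The summed level of 8 hematopoietic markers was 56739 TPM in HC against 2115 in NC, 776 in MC and 218 in EC, that of 6 neuronal markers 2947 TPM in NC against at most 33.4 elsewhere, that of 6 epithelial markers 3391 TPM in EC against 206 in MC, and that of 6 mesenchymal markers 1008 TPM in MC against 122 in EC. The extraction text of 14 samples names germ cells and gonadal somatic cells, which do not appear among the organs of the labels or of the cell table.

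Below, a level is the mean over an embryo's cells of log2(TPM/10 + 1), the scale of the study, taken where at least 3 cells of the set were present. A cell at 10 TPM has the value 1 and is called expressing. Differences on this scale are smaller than the change in TPM for genes near 0. The embryo was the replicate. A difference was called at an adjusted p below 0.05 and a size of at least 1 (limma, Benjamini-Hochberg over all genes tested), and a slope on day at 0.5 per day or more. Since no source says how the embryos relate to litters, the p-values measure the spread between these 7 embryos. Overlap of embryo ranges is given as a description, and the share of all genes with separate ranges was not computed.

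The members lie in a few imprinted clusters. In GENCODE vM21 (GRCm38), Igf2 spans chr7:142650766-142666816 and the noncoding RNA gene H19 chr7:142575529-142578143, both on the minus strand and 72.6 kb apart, and Cdkn1c (chr7:143458339-143461050, minus strand) lies 792 kb from Igf2. Dlk1 (chr12:109452823-109463336) and the noncoding Meg3 (chr12:109541001-109571726) are both on the plus strand, 77.7 kb apart. Peg3 (chr7:6703892-6730431, minus strand), Peg10 (chr6:4747306-4760517), Mest (chr6:30723547-30748465), Nnat (chr2:157560078-157562522) and Plagl1 (chr10:13060504-13131694) lie apart from them. RefSeq start windows (GRCm38.p6) were at hand for 7 of the 10 members, and none for H19, Cdkn1c and Peg10. The 250 bases before a start are shown for Igf2, Dlk1 and Meg3, because these genes carry the organ differences described below and these 3 windows touch no annotated exon. Bases are in lower case from 5′ to 3′ on the strand of the gene, with each CpG, the dinucleotide on which imprinting methylation is laid down, in capitals. The windows are chr7:142657497-142657746 (Igf2, the most downstream of 4 starts, within the span of the gene), chr12:109452573-109452822 (Dlk1) and chr12:109540746-109540995 (Meg3, the upstream start).
Igf2: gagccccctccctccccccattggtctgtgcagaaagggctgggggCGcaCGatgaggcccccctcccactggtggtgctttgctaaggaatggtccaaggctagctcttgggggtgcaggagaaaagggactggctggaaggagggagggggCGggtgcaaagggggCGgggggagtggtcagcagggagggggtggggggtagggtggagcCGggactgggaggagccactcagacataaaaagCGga
Dlk1: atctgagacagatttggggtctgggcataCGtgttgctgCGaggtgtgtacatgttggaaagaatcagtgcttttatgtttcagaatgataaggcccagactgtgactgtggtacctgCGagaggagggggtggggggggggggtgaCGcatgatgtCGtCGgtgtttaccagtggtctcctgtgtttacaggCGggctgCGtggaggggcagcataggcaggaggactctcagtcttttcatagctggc
Meg3: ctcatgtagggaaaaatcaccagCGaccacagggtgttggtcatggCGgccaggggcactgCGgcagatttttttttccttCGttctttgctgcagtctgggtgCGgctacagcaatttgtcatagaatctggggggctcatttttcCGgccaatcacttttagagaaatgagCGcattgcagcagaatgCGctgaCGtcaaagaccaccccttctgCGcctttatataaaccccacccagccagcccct
These stretches hold 6, 8 and 10 CpG and are 66.0%, 54.8% and 52.4% G or C. The Meg3 window holds TATAAA at -25 from the start, letters found on either strand in 13.6% of 32851 start windows of 300 bases. The palindrome GGGGCCCC, the core of the motif bound by the zinc-finger factor PLAGL1, was found in 1 of the 13 windows of the members, that of Peg3 at -201 from the start, against 1.08% of all windows. These matches and CpG counts are letters in a window and no measure of binding or methylation.

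Across 13 sets of cells defined by label and organ, the genes differed in the set of their highest level, as the plot of levels by set shows, and the sets named here are those with the highest mean TPM. Igf2, the growth factor that signals through the IGF1 receptor, was highest in skin epithelium at 1406 ± 507 TPM (SD, n = 6 embryos), and H19 in heart MC cells at 1080 ± 212 TPM (n = 6). Nnat, which encodes a small membrane protein of the endoplasmic reticulum, reached 2402 ± 1527 TPM in forebrain NC cells (n = 6). Dlk1, a transmembrane Notch-family ligand that marks hepatoblasts, reached 474 ± 75.6 TPM in liver epithelium and Meg3 814 ± 608 TPM in the same cells (n = 6). Cdkn1c, the CDK inhibitor p57, was highest in heart MC cells (859 ± 447 TPM, n = 6), Mest, an alpha/beta hydrolase, in somite MC cells (418 ± 120 TPM, n = 7), Plagl1 in liver mesenchyme (265 ± 83.8 TPM, n = 3) and the zinc-finger gene Peg3 in intestine epithelium (112 ± 67.5 TPM, n = 7). Peg10, a gene derived from a retrotransposon, stayed low, with at most 20.5 ± 3.61 TPM in liver mesenchyme (n = 3). By the mean log2 level defined above, the first place went instead to liver mesenchyme for H19 (6.41 against 6.26 in heart) and Cdkn1c (5.63 against 5.51), and to liver epithelium for Peg10 (1.32 against 1.31 in liver mesenchyme), with overlapping embryo ranges for all 3 genes. Between neighbours in the order of the 13 sets, the embryo ranges of log2 levels overlapped in 11 or 12 of 12 pairs for every member. The gaps lay between liver epithelium and the next set for Dlk1 (lowest embryo 5.27 against a highest of 4.56) and Meg3 (5.0 against 4.84), between somite MC cells and liver mesenchyme for Mest (4.54 against 4.32), and between skin mesenchyme and liver HC cells for Igf2 (4.31 against 1.59) and H19 (3.11 against 2.83). These gaps are to the next set in the order alone. For Meg3, intestine mesenchyme reached 6.13 and intestine epithelium 5.58, and for Mest, skin mesenchyme reached 5.96 and heart MC cells 4.79, so these sets overlapped the first.

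**Figure D1:**
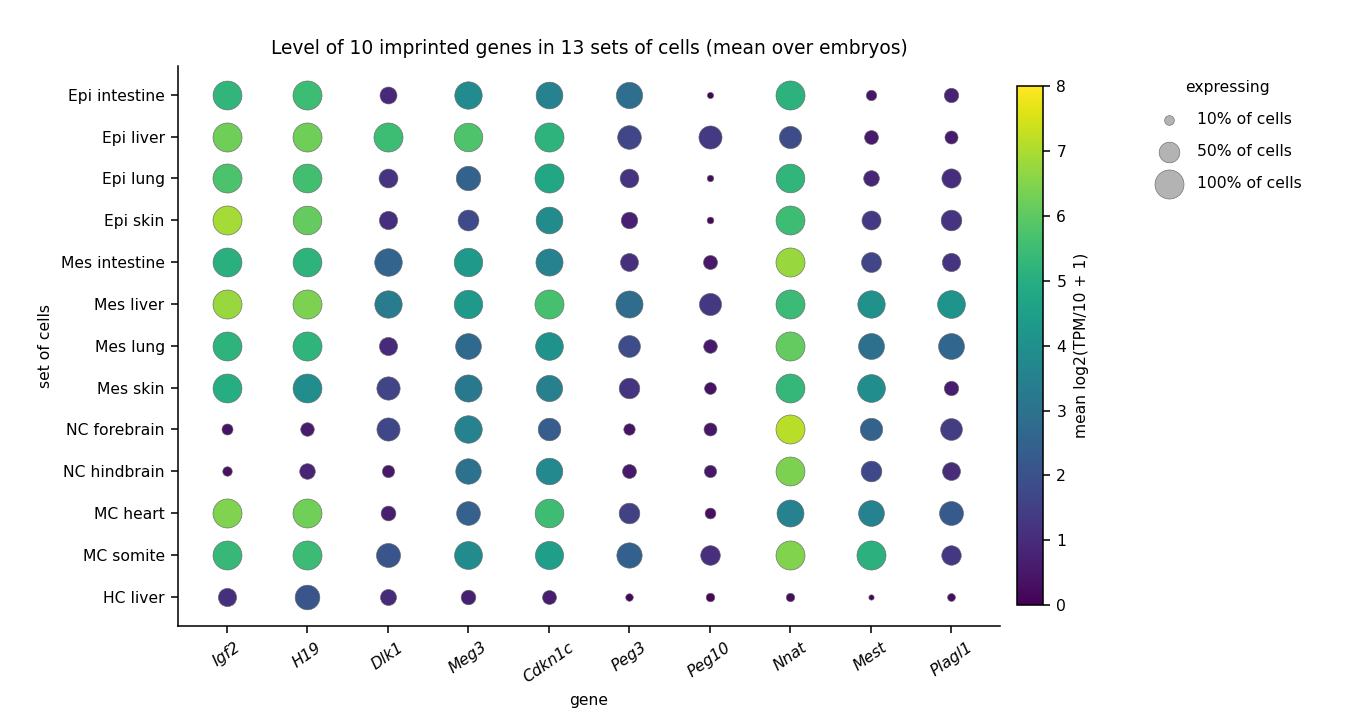
Levels of the 10 genes in 13 sets of cells, where colour is the mean over embryos of log2(TPM/10 + 1) and circle size the mean percentage of cells at 10 TPM or more. Nnat is highest in forebrain NC cells, Dlk1 and Meg3 in liver epithelium, Mest in somite MC cells, and liver HC cells have the lowest mean of the 13 sets for Meg3, Cdkn1c, Peg3, Nnat, Mest and Plagl1.

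The 10 genes together took 0.334% of the UMIs of MC cells, 0.308% in EC, 0.269% in NC and 0.0463% in HC (means of embryo values, n = 7, 7, 6 and 7). Liver mesenchyme gave the largest share of the 13 sets at 0.462% (3 embryos) and liver HC cells the smallest at 0.0171% (5 embryos). The highest share in a kept cell was 1.57%, in an MC cell.

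Between the 4 major groups, HC cells had the lowest levels of most members, NC cells had the lowest Igf2 and H19 and the highest Nnat, and EC and MC cells shared high Igf2 and H19. Every contrast set a group against the mean of the other 3, so the 4 contrasts share samples and are not independent. Igf2 levels ran over embryos from 0.80 to 2.14 in HC (median 1.51), 0.17 to 0.55 in NC (0.47), 5.31 to 6.46 in EC (6.20) and 4.64 to 6.28 in MC (5.60). EC and MC overlapped, and both lay above every HC and NC mean. H19, a noncoding RNA that carries a microRNA and restrains growth, ran from 1.89 to 6.57 in HC (median 2.66), 0.18 to 1.16 in NC (0.82), 5.01 to 6.55 in EC (5.93) and 4.45 to 6.06 in MC (5.53). HC thus reached into the EC range for H19 and not for Igf2. The plot of embryo means shows both genes with Dlk1 and Nnat.

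**Figure D2:**
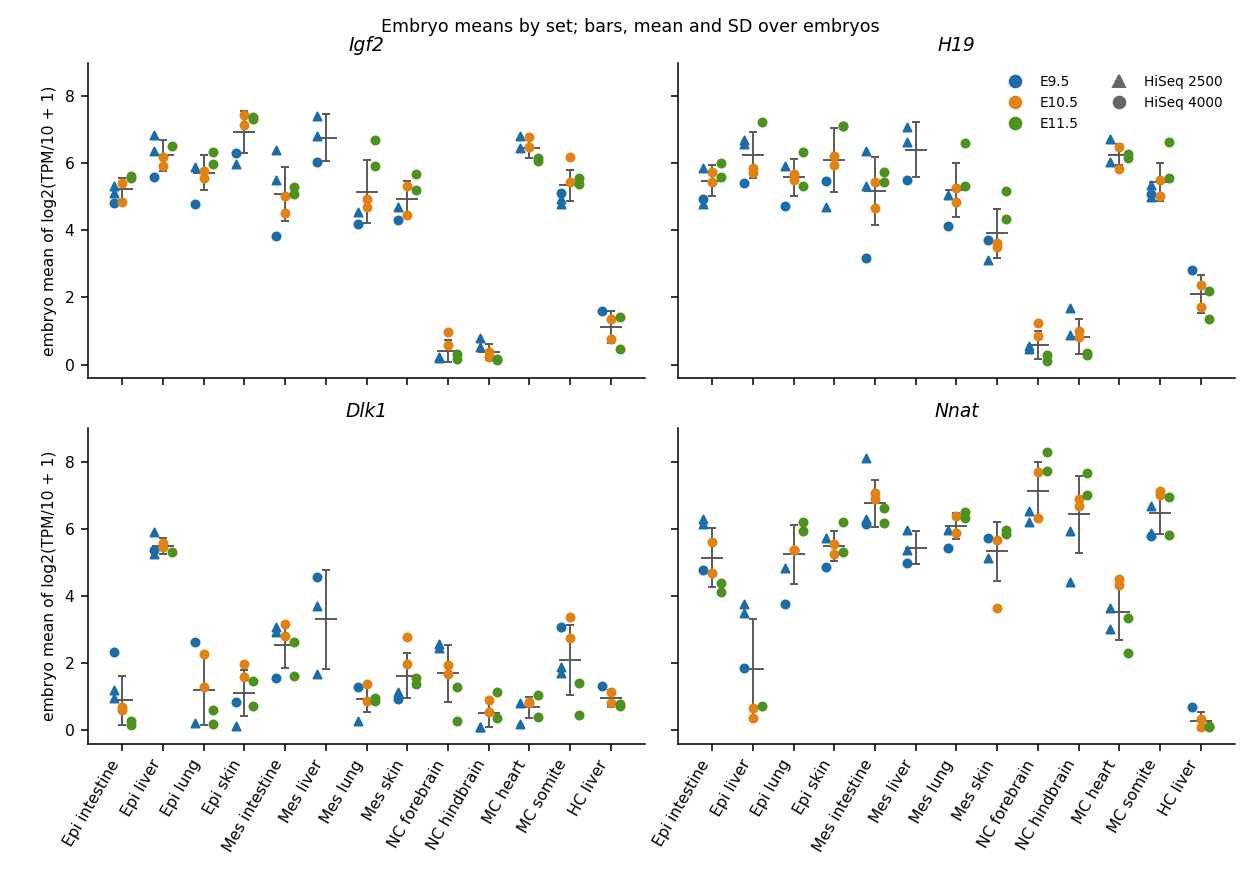
Embryo means of log2(TPM/10 + 1) for Igf2, H19, Dlk1 and Nnat in each set, where a point is an embryo coloured by day, triangles are HiSeq 2500 and circles HiSeq 4000 libraries, and bars give the mean ± SD over embryos. Dlk1 of liver epithelium lies between 5.27 and 5.91 and above every other set.

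In HC against the other groups, 7 of 10 members were called, all lower, against 4.17% of all genes called lower and 6.85% in either direction. The genes fell by 4.65 ± 0.28 for Nnat (SE, adjusted p = 5.26e-13), 2.96 ± 0.35 for Cdkn1c (1.2e-07), 2.72 ± 0.34 for Meg3 (2.86e-07), 2.59 ± 0.18 for Igf2 (5.8e-12), 1.89 ± 0.27 for Mest (2.11e-06), 1.21 ± 0.14 for Peg3 (1.01e-07) and 1.01 ± 0.10 for Plagl1 (1.05e-08), with all 7 embryos in that direction for each. Dlk1 (-0.94, adjusted p = 0.00848) and Peg10 (-0.36, 0.00384) were below the size of a call. H19 differed by -0.64 ± 0.42 (adjusted p = 0.212), and edgeR on summed UMIs gave it the opposite sign, 1.07 (adjusted p = 0.0257). HC levels of Meg3 (0.49 to 0.91), Nnat (0.40 to 2.72) and Plagl1 (0.14 to 0.57) did not overlap those of the other groups. The Plagl1 call fell under the size limit without E10.5 embryo 2 (-0.96), without embryo 1 of E9.5 or of E11.5 (both -0.99) and after removal of globin UMIs (-0.99).

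In NC, 3 members were called, 1 higher and 2 lower, against 2.14% of all genes called higher, 1.16% lower and 3.31% in either direction. Igf2 was lower by -3.94 ± 0.19 (adjusted p = 4.61e-15) and H19 by -4.16 ± 0.45 (3.86e-08), with no overlap of embryo levels, and Nnat was higher by 3.14 ± 0.30 (3.74e-09), each in 6 of 6 embryos. NC means of Nnat ran from 5.50 to 7.71 with a median of 6.98, and the lowest of them lay within the MC range of 4.55 to 6.04. Meg3 (2.88 to 3.79) and Cdkn1c (1.92 to 3.85) were well detected in NC, and their differences of 0.82 and -0.20 from the other groups did not pass the test (adjusted p = 0.0834 and 0.713). The count rose to 5 with log2(TPM + 1) and to 6 with edgeR.

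In EC, 6 members were called, 5 higher and 1 lower, against 1.87% of all genes called higher, 0.396% lower and 2.27% in either direction. Higher were Igf2 (3.58 ± 0.18, adjusted p = 7.72e-15), H19 (2.71 ± 0.42, 1.93e-05), Cdkn1c (1.51 ± 0.35, 0.00197), Meg3 (1.28 ± 0.34, 0.00636) and Peg3 (1.08 ± 0.14, 1.37e-06), and lower was Mest (-1.24 ± 0.27, 0.00103). EC means of Mest ran from 0.16 to 1.32 against 3.05 to 4.38 in MC, without overlap. The Meg3 call was lost without E9.5 embryo 1 (0.90) and with HiSeq 4000 embryos alone (0.55, adjusted p = 0.0921), the Peg3 call without E9.5 embryo 2 (0.99) and with HiSeq 4000 alone (0.92), and the Mest call with edgeR (adjusted p = 0.0504). In MC, 6 members were called higher against 1.21% of all genes called higher and 1.52% in either direction, namely Igf2 (2.94 ± 0.18, adjusted p = 3.83e-12), Mest (2.64 ± 0.27, 4.02e-08), H19 (2.09 ± 0.42, 0.000682), Cdkn1c (1.64 ± 0.35, 0.00116), Plagl1 (1.15 ± 0.10, 4.24e-09) and Nnat (1.14 ± 0.28, 0.00469), in 7 of 7 embryos each. Mest was thus called in opposite directions in EC and MC. In both contrasts the mean of the other groups includes the low HC. Mean Nnat was 6.83 in NC, 5.33 in MC, 4.76 in EC and 0.99 in HC. MC was thus called higher for Nnat although it lay below NC. Mean Cdkn1c was 4.59 in MC, 4.49 in EC, 3.21 in NC and 1.14 in HC, so EC was called higher without lying above MC. Plagl1 in EC, at -0.24 (adjusted p = 0.0995), did not pass.

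H19 in HC differed between cells of the liver and cells of other organs. Of the 246 HC cells, 178 came from the liver, the site of fetal blood formation, and 68 from other organs. In liver HC cells the H19 level of 5 embryos ran from 1.37 to 2.83, and in HC cells outside the liver that of 6 embryos ran from 3.58 to 6.57, so the ranges did not overlap. The lower end outside the liver belonged to the later days (3.58 to 3.88 at E10.5 and E11.5) and the upper end to E9.5 embryo 2 (5.43, 19 cells) and E9.5 embryo 1 (6.57, 3 cells). Neither of these E9.5 embryos had a liver HC mean, so site and embryo cannot be told apart for their values. Igf2 ran from 0.47 to 1.59 in the liver and from 1.37 to 3.11 outside it, and in all 4 embryos with both kinds of cells both genes were higher outside. Globin genes took 1.35% to 4.95% of the UMIs of liver HC cells and 0.0417% to 22.9% outside the liver, and their part in this difference was not tested. The kinds of blood cell also differed by site, since the paper found most primitive macrophages outside the liver. The part of cell kind was not tested either. Within HC the ratio of Igf2 to H19 UMIs was 0.0425 to 0.507 over embryos (median 0.223), below the ranges of EC (0.845 to 1.55) and MC (0.767 to 1.27).

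Within organs, epithelium and mesenchyme differed in different members, as the plot of differences shows. In the skin, 3 members were called against 3.71% of all genes. Igf2 in skin epithelium was 5.98 and 6.31 at E9.5, 7.44 and 7.15 a day later and 7.39 and 7.34 on the last day. In skin mesenchyme of the same embryos it was 4.70, 4.31, 4.46, 5.33, 5.19 and 5.67, so no embryo overlapped. The difference was 1.99 ± 0.35 (adjusted p = 3.8e-05), in 6 of 6 embryos. H19 was higher by 2.18 ± 0.42 (0.00017), from 4.69 to 7.12 in epithelium and 3.11 to 5.17 in mesenchyme, and Mest was lower by -2.61 ± 0.45 (3.03e-05), from 0.24 to 2.21 against 2.24 to 5.96. Meg3 at -1.45 had an adjusted p of 0.081, and of 0.0434 with the embryo as a block.

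**Figure D3:**
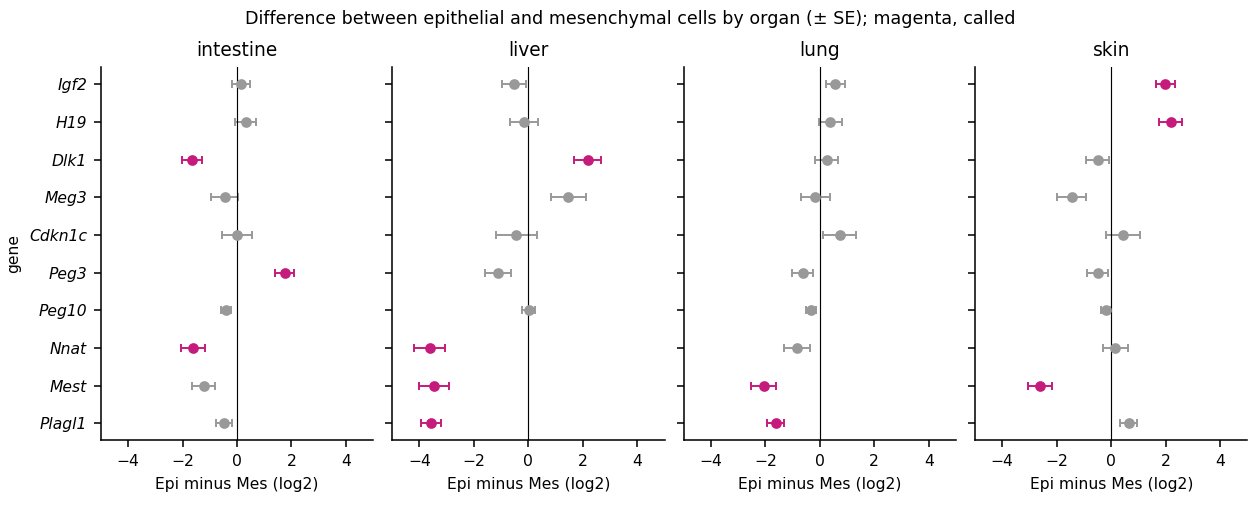
Epithelium minus mesenchyme for each gene and organ on the log2(TPM/10 + 1) scale, with bars of 1 SE from limma and magenta points for called differences. Igf2 and H19 are called in skin alone. Plagl1 and Mest are called lower in liver and lung, Mest also in skin, and Dlk1 has opposite signs in liver and intestine.

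In the liver, 4 members were called against 5.8% of all genes. Plagl1, Nnat and Mest were lower in epithelium by -3.58 ± 0.38 (adjusted p = 5.45e-10), -3.63 ± 0.57 (4.91e-06) and -3.47 ± 0.55 (6.54e-06), and Dlk1 was higher by 2.18 ± 0.50 (0.0018). Liver mesenchyme came from the 3 E9.5 embryos alone, in which Plagl1 was 3.42, 4.58 and 4.44, against 0.06 to 1.45 in the epithelium of 6 embryos. The contrast therefore sets epithelium of all 3 days against mesenchyme of the first. Nnat was 3.77, 3.51 and 1.86 in the E9.5 epithelium, 0.38 to 0.74 later, and 4.98 to 5.98 in the mesenchyme. With E9.5 embryos only, a fit added after seeing the data, Nnat was lower by -2.40 (adjusted p = 0.0124), Mest by -3.01 (0.00241) and Plagl1 by -3.25 (4.53e-05), and Dlk1 was 2.21 higher but missed the threshold (0.0567). Dlk1 was 1.68, 3.69 and 4.56 in the mesenchyme of embryos 1, 2 and 3, a wide spread beside 5.27 to 5.91 in epithelium. The Dlk1 call was also lost without E9.5 embryo 1 (1.27, adjusted p = 0.194), with edgeR (0.339) and with HiSeq 4000 embryos alone (0.87, 0.781). The summed level of 5 hepatoblast markers was 18489 TPM in liver epithelium (6943 to 30515 over embryos) and 199 TPM in liver mesenchyme (29.2 to 291), and that of 5 cardiomyocyte markers was 1222 TPM in liver mesenchyme (73.0 to 2486) against 8865 TPM in heart MC cells. The part of these heart transcripts in the liver mesenchyme values was not tested.

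In the lung, 2 members were called against 3.49% of all genes, Mest (-2.06 ± 0.45, adjusted p = 0.00152) and Plagl1 (-1.62 ± 0.31, 0.000247), both lower in epithelium in 6 of 6 embryos. In the intestine, 3 were called against 3.97%. Dlk1 was lower in epithelium (-1.65 ± 0.38, adjusted p = 0.00173), with 0.17 to 2.33 in epithelium and 1.56 to 3.17 in mesenchyme. Nnat was also lower (-1.62 ± 0.43, 0.00807), from 4.11 to 6.30 against 6.15 to 8.12, a call that missed the threshold with log2(TPM + 1) (0.0588). Peg3 was higher (1.75 ± 0.36, 0.000466), from 2.12 to 3.99 against 0.28 to 3.18, in 7 of 7 embryos. The summed level of the epithelial markers was 4763 TPM in intestine epithelium and 557 TPM in intestine mesenchyme (113 to 1292 over embryos). In liver, skin and lung mesenchyme it was 320, 163 and 113 TPM. The part of these epithelial transcripts in the intestine differences was not tested. Mest in intestine at -1.22 had an adjusted p of 0.0507, and of 0.0227 with the embryo as a block, so Mest lay lower in the epithelium of all 4 organs by sign and in 3 of them by the test without the block.

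The differences between epithelium and mesenchyme themselves differed between organs. For liver minus skin, 6 members were called against 7.13% of all genes, namely Plagl1 (-4.23 ± 0.49, adjusted p = 8.63e-09), Nnat (-3.77 ± 0.74, 0.000238), Meg3 (2.91 ± 0.83, 0.0144), Dlk1 (2.68 ± 0.65, 0.00332), Igf2 (-2.52 ± 0.55, 0.00108) and H19 (-2.35 ± 0.67, 0.0141). For intestine minus liver, 4 were called against 5.64%, namely Dlk1 (-3.83 ± 0.63, 2.1e-05), Plagl1 (3.11 ± 0.48, 6.39e-06), Peg3 (2.87 ± 0.60, 0.000824) and Mest (2.24 ± 0.70, 0.032). For intestine minus skin, 3 were called against 3.57%, Peg3 (2.25), H19 (-1.87) and Igf2 (-1.84). The smaller counts were 2 for intestine minus lung (Peg3 2.38 and Dlk1 -1.90, against 2.33%), 2 for liver minus lung (Nnat -2.79 and Plagl1 -1.96, against 4.25%) and 1 for lung minus skin (Plagl1 -2.27, against 3.17%). Of these calls, Plagl1 between liver and skin, between intestine and liver and between lung and skin, and Peg3 between intestine and liver and between intestine and skin were kept in every alternative run. The 3 contrasts with liver share the mesenchyme of a single day. With E9.5 embryos only, Meg3 between liver and skin was also called (3.97, 0.0401), and the other calls were lost, namely Dlk1 (-3.23, 0.0601) and Mest (1.94, 0.218) between intestine and liver, Nnat (-0.99, 0.882) and Plagl1 (-2.17, 0.149) between liver and lung, and Dlk1 (0.207), H19 (0.458), Igf2 (0.192) and Nnat (-2.26, 0.226) between liver and skin. With edgeR, Dlk1 (-3.68, 0.0525) and Mest (0.741) between intestine and liver, Dlk1 (0.136) and Peg3 (0.112) between intestine and lung, Nnat (0.0993) and Plagl1 (0.23) between liver and lung, and Dlk1 between liver and skin (0.362) were lost. With HiSeq 4000 embryos alone, Dlk1 (-2.41, 0.104) and Mest (0.0574) between intestine and liver, Dlk1 between intestine and lung (0.0719), H19 between intestine and skin (0.124), and Dlk1 (0.524), H19 (0.338) and Igf2 (0.078) between liver and skin were lost. Leaving out embryos also ended calls. Mest between intestine and liver was lost without either E10.5 embryo (adjusted p = 0.0765 and 0.0532), without E11.5 embryo 2 (0.0641), and without embryo 1 (0.103) or 3 (0.172) of E9.5. Dlk1 between intestine and lung was lost without either E10.5 embryo (0.222 and 0.14), either E11.5 embryo (0.0658 and 0.0998) or E9.5 embryo 2 (0.0753), and Peg3 there without E10.5 embryo 1 (0.0635). Between intestine and skin, H19 was lost without any 1 of 6 embryos (0.058 to 0.179, all but E9.5 embryo 3) and Igf2 without either E10.5 embryo (0.0511 and 0.0523). Between liver and lung, Nnat was lost without either E10.5 embryo (0.0618 and 0.0535) or without E11.5 embryo 2 (0.06), and Plagl1 without embryo 2 (0.0613) or 3 (0.0719) of E9.5. Between liver and skin, Dlk1 was lost without E9.5 embryo 1 (0.102), H19 without E9.5 embryo 1 (0.0751) or either E10.5 embryo (0.0577 and 0.0762), and Meg3 without E9.5 embryo 3 (0.084). With the embryo as a block, H19 (-1.81, 0.00788) and Igf2 (-1.43, 0.00794) were added for lung minus skin.

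Among epithelia, liver stood apart through Dlk1 and Meg3, whose upstream windows are printed above. For liver against the other 3 organs, 4 members were called against 6.64% of all genes. Dlk1 of liver epithelium was 5.91, 5.27 and 5.38 in the 3 youngest embryos, 5.47 and 5.58 a day later and 5.30 in the last-day embryo with enough cells, and no mean of another epithelium passed 2.62. The difference was 4.42 ± 0.33 (adjusted p = 4.94e-15). Meg3 was 7.52, 5.66, 5.0, 6.15, 5.27 and 5.07 in the same embryos, 3.06 ± 0.42 above the others (1.76e-07), although intestine epithelium reached 5.58. Peg10 was 0.91 to 2.10 against at most 0.65 (1.15 ± 0.16, 1.11e-07), and without E10.5 embryo 1 its difference was 0.98. Nnat was lower by -3.47 ± 0.38 (4.22e-10).

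In skin epithelium 5 members were called against 4.27% of all genes. Igf2 (1.20 ± 0.28, adjusted p = 0.00169) and Nnat (1.42 ± 0.38, 0.0059) were higher, and Meg3 (-2.26 ± 0.42, 7.5e-05), Dlk1 (-1.41 ± 0.33, 0.00172) and Peg3 (-1.18 ± 0.32, 0.00639) lower. Intestine epithelium had 3 calls against 2.1%, with Peg3 higher (1.66 ± 0.30, 7.89e-05) and Dlk1 (-1.71 ± 0.32, 0.000103) and Igf2 (-1.05 ± 0.27, 0.00599) lower. Lung epithelium had 1 call against 2.09%, Dlk1 (-1.30 ± 0.33, 0.00752), which was lost without E11.5 embryo 2 (-1.13, 0.0713), with at least 5 cells per mean (0.279) and with edgeR (0.483). The organs share the comparison samples, so the lower Dlk1 of the other organs is not independent of its level in liver. The same holds for the higher Nnat of skin. Mean Nnat levels were 5.49 in skin, 5.24 in lung, 5.15 in intestine and 1.82 in liver epithelium. Dlk1 in skin was lost with edgeR (0.151), Igf2 in intestine fell under the size limit without E10.5 embryo 2 (-0.97), and with the embryo as a block Cdkn1c in intestine (-1.24, 0.0164) and Nnat in lung (1.17, 0.028) were added.

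Among mesenchymes, Plagl1, a zinc-finger transcription factor that controls other imprinted genes, ranged over embryos from 3.42 to 4.58 in liver, 1.52 to 3.52 in lung, 0.24 to 2.07 in intestine and 0.36 to 0.91 in skin, with overlap between each organ and the next. Liver against the other 3 organs gave 4 calls against 1.45% of all genes, and Plagl1 was higher by 2.65 ± 0.34 (adjusted p = 1.64e-07) in 3 of 3 embryos. Igf2 (1.70 ± 0.38, 0.00281), H19 (1.65 ± 0.45, 0.0271) and Dlk1 (1.61 ± 0.44, 0.027) rest on the same embryos, and Dlk1 was higher in 2 of 3. With E9.5 embryos only, Plagl1 (3.08, 8.93e-05) and Igf2 (2.06, 0.0177) were called, and H19 (2.09, 0.0619) and Dlk1 (1.87, 0.148) were not. Without E9.5 embryo 1, Igf2 (0.13) and H19 (0.457) missed the threshold, H19 also without E9.5 embryo 2 (0.16) or either E10.5 embryo (0.0859 and 0.066), and Igf2 and H19 with HiSeq 4000 embryos alone. Dlk1 was lost without embryo 2 (0.294) or 3 (0.614) of E9.5 or E11.5 embryo 1 (0.0543), and was 2.45 without E9.5 embryo 1. Skin gave 2 calls against 1.85%, Plagl1 (-2.08 ± 0.26, 9.4e-08) and H19 (-1.68 ± 0.36, 0.00112), the latter lost with HiSeq 4000 embryos alone (0.13). Intestine gave 2 against 1.51%, Mest (-1.96 ± 0.37, 0.000256) and Plagl1 (-1.24 ± 0.25, 0.000905), both lost with edgeR (0.2 and 0.208). Lung gave 1 against 0.916%, Dlk1 (-1.55 ± 0.35, 0.005), lost without E9.5 embryo 2 (0.0544) and with edgeR. The block added Nnat in intestine (1.14, 0.0443), Cdkn1c in liver (1.84, 0.0472) and Mest in skin (1.12, 0.0478).

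Heart MC cells, against the mean of intestine, lung and skin mesenchyme, had 5 member calls against 3.55% of all genes. The paper divides its heart cells into cardiomyocytes, endothelial and epicardial cells. The summed level of the cardiomyocyte markers was 8865 TPM in heart MC cells, against 6.39, 51.9 and 3.50 TPM in intestine, lung and skin mesenchyme. The part of cell kind in these differences was not tested. Cdkn1c (1.84 ± 0.47, adjusted p = 0.00483), H19 (1.5 ± 0.32, 0.000868) and Igf2 (1.40 ± 0.29, 0.000535) were higher, and Nnat (-2.54 ± 0.31, 1.21e-07) and Dlk1 (-1.02 ± 0.31, 0.0161) lower, in 6 of 6 embryos each. Igf2 ran from 6.08 to 6.82 in heart against 3.83 to 6.70 in the mesenchymes, and Nnat from 2.30 to 4.5 against 3.65 to 8.12. Cdkn1c in heart was 6.81 and 6.16 at E9.5 and 4.73 to 5.57 later, and its difference with HiSeq 4000 embryos alone was 1.16. Dlk1 was lost without either E10.5 embryo (-0.94 and -0.98), without E11.5 embryo 2 (-0.96) or without E9.5 embryo 1 (-0.89), and the block added Meg3 (-1.12, 0.0196). Somite MC cells had 1 call against 1.01%, Mest (2.26 ± 0.37, 0.000186), at 4.54 to 5.69 in 7 embryos against 0.28 to 5.96.

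Between forebrain and hindbrain NC cells, with day in the model, limma called 0 of 10 members against 0.62% of all genes. At an unadjusted p below 0.05 there were 4, and edgeR called 1, Mest (1.31, adjusted p = 0.0402). The values with the smallest limma p were Dlk1 at 1.17 ± 0.31 (adjusted p = 0.0832) and Cdkn1c at -1.45 ± 0.44 (0.131). Igf2 and H19 were at or below 0.98 and 1.70 in every embryo of both regions.

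Over the 3 days, slopes were small for most genes and sets, and 6 of 12 sets had a member called. In forebrain NC cells, Mest was 4.27 and 4.43 at E9.5, then 2.97 and 1.76, then 0.56 and 1.17, a slope of -1.74 ± 0.32 per day (adjusted p = 7.48e-05), the only member called against 7.89% of all genes. In hindbrain NC cells, Nnat was 4.41 and 5.93, then 6.90 and 6.67, then 7.67 and 7.02 (1.09 ± 0.33 per day, 0.0402), against 2.22%. Both E9.5 embryos of the brain were sequenced on the HiSeq 2500, so day and sequencer cannot be told apart there, and from E10.5 to E11.5 alone the slopes were -1.5 (0.357) and 0.56 (1). The Nnat call was also lost with log2(TPM + 1) (0.0778), with edgeR (0.387) and without embryo 1 of E10.5 (0.0603) or of E11.5 (0.294) or either E9.5 embryo (0.483 and 0.0553), and the Mest call with edgeR (0.244). With the embryo as a block, Dlk1 in forebrain was added (-0.88 per day, 0.0459). Each brain set pools several kinds of neural cell. In the forebrain, the paper found mostly neuroepithelial or radial glial cells at E9.5 and more mature cells only at later stages. In the hindbrain it found every kind already at E9.5. The part of cell kind in the slopes of both regions was not tested. The difference of slopes between both brain regions was called for 0 members by limma, against 0.466% of all genes, with 1 at an unadjusted p below 0.05 and 1 called by edgeR.

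In skin epithelium, H19 was 4.69 and 5.49, then 5.96 and 6.23, then 7.12 and 7.12, a slope of 1.02 ± 0.27 per day (adjusted p = 0.0159) against 2.93% of all genes called. In lung mesenchyme, Igf2 was 4.55 and 4.19, then 4.68 and 4.93, then 6.70 and 5.92 (0.97 ± 0.22 per day, 0.00427), against 1.69%. In liver epithelium, Nnat was 3.77, 3.51 and 1.86 at E9.5, then 0.66 and 0.38, then 0.74 (-1.43 ± 0.36 per day, 0.00487), against 2.35%. In intestine mesenchyme, Peg3 was 2.36, 3.18 and 0.57 at E9.5 and 0.28 to 0.74 later (-0.87 ± 0.24 per day, 0.0267), against 1.34%, where the high values were the HiSeq 2500 embryos and the HiSeq 4000 embryos alone gave -0.11 (1). Each of these calls was lost in some alternative, H19 without E9.5 embryo 2 (0.139) or either E11.5 embryo (0.101 and 0.0693), Igf2 without E11.5 embryo 1 (0.475), Nnat without embryo 1 (0.058) or 2 (0.0541) of E9.5 and with HiSeq 4000 embryos (-0.56, 0.734), while it steepened to -2.52 without E11.5 embryo 2, and Peg3 without embryo 1 (0.182) or 2 (0.315) of E9.5 or either E11.5 embryo (0.0991 and 0.0651). The calls of H19, Igf2 and Peg3 were also lost with edgeR, and that of H19 with HiSeq 4000 embryos alone.

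In the other 6 sets limma called 0 members. The counts at an unadjusted p below 0.05 and by edgeR were 5 and 1 in intestine epithelium (2% of all genes called), 4 and 0 in lung epithelium (2.65%), 4 and 0 in skin mesenchyme (1.03%), 1 and 0 in heart MC cells (2.9%), 4 and 0 in somite MC cells (0.378%), and 0 and 0 in liver HC cells (0.716%). For the mean of the 12 slopes the counts were 0 called by limma, 5 at an unadjusted p below 0.05 and 1 by edgeR (0.594% of all genes). The largest was Mest at -0.49 ± 0.09 per day (adjusted p = 4.88e-05), just under the size limit.

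Cdkn1c varied between embryos of the same day. In MC cells it was 5.84, 3.56 and 4.13 in E9.5 embryos 1, 2 and 3, then 4.56 and 4.64 in the next pair of embryos and 4.36 and 5.07 in the oldest pair. In EC cells the same embryos gave 6.72, 3.73, 3.91, 4.24, 4.76, 4.29 and 3.81, so E9.5 embryo 1 stood above all others in both groups. The organs sampled differed between embryos, and E9.5 embryo 1 had no lung or skin library. Of its 14 EC cells, 9 were liver and 5 intestine epithelium. Its 110 MC cells included 45 from heart and 29 of liver mesenchyme, the sets with the highest mean Cdkn1c (5.51 and 5.63). The part of this mix in the group values was not tested. Of the 13 sets, E9.5 embryo 1 had means in 8 and was the highest in 5, and E9.5 embryo 2 had means in 12 and was the lowest in 9. Both were HiSeq 2500 embryos of the same day. Embryo 2 had the highest depth and was labelled female, and the part of either in its values was not tested. Other members had such patterns too, with E9.5 embryo 3 lowest for Igf2 in 7 of 10 sets and E9.5 embryo 2 highest for Mest in 7 of 12. The plot of Cdkn1c by embryo gives all means.

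Neighbouring genes of opposite parental origin were correlated to different degrees. Over 77 embryo means of the 13 sets, which share embryos, libraries and depth, the Pearson correlation of Igf2 with H19 was 0.96, the highest of 17232 genes for either, and that of Dlk1 with Meg3 was 0.67. At the level of cells, Igf2 and H19 were both expressed in 98.7% of EC, 97.7% of MC, 37.4% of HC and 5.50% of NC cells. Within a set the correlation over cells ran from 0.03 in liver epithelium to 0.58 in heart MC cells. Dlk1 and Meg3 were both expressed in 46 of 47 liver epithelium cells (97.9%) and in 10.2% of HC cells, with correlations over cells from 0.02 in intestine mesenchyme to 0.62 in liver epithelium. In UMIs, median ratios of Igf2 to H19 over embryos lay between 0.859 and 1.84 in the 10 sets outside HC and NC cells, lowest in somite MC cells and highest in skin mesenchyme. The ratio of Dlk1 to Meg3 varied more, with medians of 0.699 in liver epithelium, 0.0319 in intestine epithelium and 0.137 in heart MC cells.

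**Figure D4:**
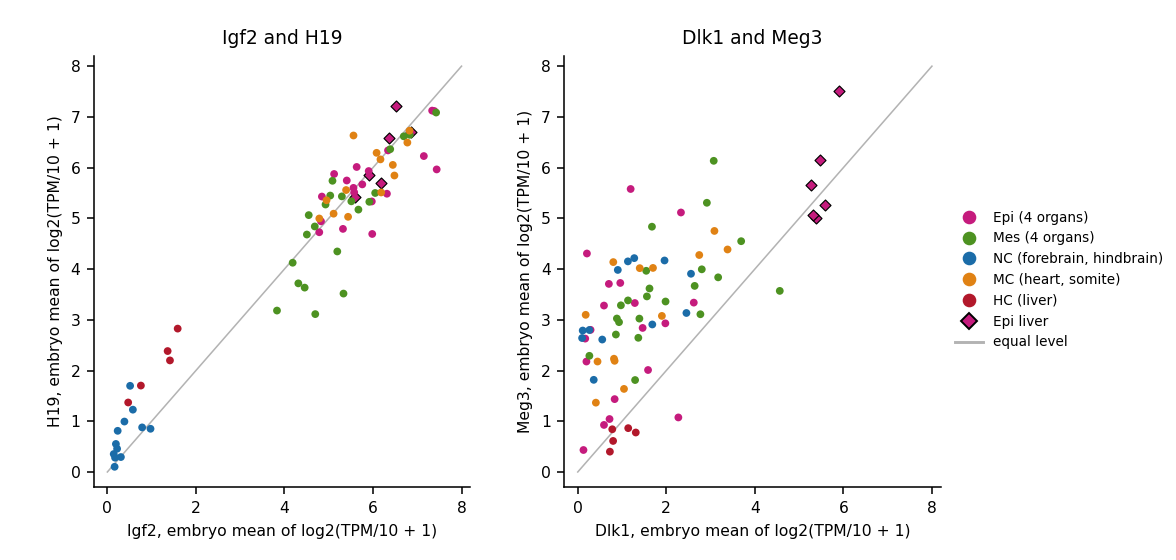
Embryo means of Igf2 against H19 and of Dlk1 against Meg3 as log2(TPM/10 + 1), 77 points from 13 sets, with a line of equal levels and liver epithelium as diamonds. Igf2 and H19 lie near the line in most sets, with H19 the higher in liver HC cells and Igf2 the higher in skin mesenchyme, and Dlk1 is highest in liver epithelium.

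The genes with patterns closest to the members were named by correlation over the same 77 means, without any test. For Igf2 and H19 they were, beside each other, Gpc3 (0.87 and 0.83), a heparan sulfate proteoglycan of the cell surface, and Grb10 (0.78 and 0.75), an imprinted adaptor of growth factor receptors. For Dlk1 they were Rian (0.78), Apom (0.76) and Dgat2 (0.76), and for Meg3 Rian (0.78), AF357425 (0.74) and Dlk1 (0.67). Rian lies 32.2 kb from Meg3 and 141 kb from Dlk1 in the same imprinted cluster. Peg3 had Laptm4b (0.70), its neighbour Zim1 at 7.44 kb (0.69) and Plod2 (0.69), and Peg10 had Asb4 at 623 kb (0.64), Hs3st3b1 (0.61) and Dlk1 (0.57). Nnat had Sox11 (0.89), a neural transcription factor, with H2afy2 (0.89) and Gm1673 (0.88). Mest had the collagen processing gene Pcolce (0.73), Mrc2 (0.71) and Wwtr1 (0.71), Plagl1 had its neighbour Phactr2 at 76 kb (0.72), Plat (0.67) and Gucy1a3 (0.66), and Cdkn1c had only weaker partners in Igf2r (0.60), Fn1 (0.59) and Igf2 (0.59).

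Further lists were compared in the same contrasts between major groups, for which 4.17% of all genes were lower in HC, 2.14% higher and 1.16% lower in NC, 1.87% higher in EC and 1.21% higher in MC. Of 43 other imprinted genes 39 were tested, and in HC 11 were lower (median difference of the 39 -0.33, that of all genes -0.03), in NC 3 were higher and 3 lower, in EC 4 were higher and in MC 7 were higher. Ndn, a member of the MAGE family, was lower in HC (-2.74) and higher in NC (1.17) and MC (1.60), Grb10 lower in HC (-1.78) and higher in EC (1.27) and MC (1.19), Sgce lower in HC (-1.5), and Peg12 lower in HC (-1.0) and higher in NC (1.45). Of 19 genes of the IGF pathway, 8 were lower in HC (median -0.80), 1 was higher and 2 lower in NC, 5 were higher in EC and 5 in MC. The IGF-binding protein gene Igfbp2 was lower in HC (-3.57) and higher in NC (1.35) and EC (2.64), and Igfbp5 lower in HC (-1.97) and NC (-1.40) and higher in EC (2.18) and MC (1.20). Igfbp4 was lower in HC (-2.10) and higher in EC (1.44) and MC (1.55), and the RNA-binding protein gene Igf2bp2 lower in HC (-2.20). For comparison, the medians over the 10 members were -1.55 in HC, -0.07 in NC, 1.02 in EC and 1.14 in MC. Of 7 CDK inhibitors 6 were tested, and beside Cdkn1c only Cdkn1a, higher in EC (1.70), was called. Of 13 genes that keep or remove imprinting marks, the DNA methyltransferase gene Dnmt3a (-1.83) and the oxidase gene Tet1 (-1.04) were the 2 called, both lower in HC. Grb10 and Igf2r stand in more than 1 list, as does Cdkn1c, which is also a member.

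Some members overlap other annotated genes. Mest shares 912 exon bases with Copg2 on the opposite strand (5798 UMIs against 135326 for Mest) and Igf2 98 with Igf2os (1605 against 360691), and Nnat lies within Blcap without shared exon bases with it. Whether the counting used the strand is not given in the sources used here, so reads from such overlaps cannot be assigned with certainty. With 8-base UMIs, tags that coincide lower high counts, and the correction added at most 5.27% in the cell with most Nnat UMIs.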

How the data were processed

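The members and gene lists were chosen with earlier results of these data known. The deposited tables of 32 samples hold CPM values (called TPM by the authors), each gene's UMIs scaled to 1000000 in that cell and given to the nearest 0.01. The authors made them with a modified STRT protocol (3′ tags, 8-base UMIs, 150-base reads), CASAVA 1.8, TopHat 2.0.12, mm10 and htseq-count. Its version, the annotation and the strand setting are not given in the sources used here. All values (100%) were whole UMIs within 0.05 UMI. Cells, groups, organs and days came from the study's cell table, and 97 cells that the study left out entered no comparison.

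Means over at least 3 cells per embryo and set of log2(TPM/10 + 1) were fitted with limma 3.58.1 (R 4.3.3, trend, Benjamini-Hochberg within a contrast) for genes at 1 or more in at least 3 cells. Summed UMIs were tested with edgeR 4.0.16 as an alternative. Python 3.11.15, numpy 2.4.6, pandas 2.3.3, scipy 1.17.1 and matplotlib 3.10.9 were used otherwise, and the fits were tested on simulated data. The text names all 10 members, of each further list up to 4 genes with the largest difference among those called between major groups, and for each member the 3 genes with the highest Pearson correlation over embryo means. Organs of an embryo are paired because they come from the same animal. Over 372 pairs of sets of an embryo, deviations from the set means correlated at -0.24 to 0.42 (median 0.05, 260 above 0), and the blocked values are given where they changed a call. The other alternatives were log2(TPM + 1), no filter on low values, at least 5 cells per mean, leaving out each embryo, cells thinned to 100000 UMIs, no globin UMIs, HiSeq 4000 embryos only, a correction for coinciding UMIs and, chosen after seeing the data, keeping the identical cells and E9.5 embryos only.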

Additional observations from a re-analysis of the deposited data

Results flagged for a closer look

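In 8 of 160 groups of embryo means a value lay far from the others by Dixon's test, where chance flags about 1 in 20. Of these, 5 were Cdkn1c. E9.5 embryo 1 had 6.42 in intestine epithelium (others 2.69 to 3.58), 6.89 in liver epithelium (4.42 to 5.16), 6.72 in EC (3.73 to 4.76) and 3.05 in HC (0.52 to 1.15, 3 cells), sets that share cells, and E9.5 embryo 2 had 1.92 in NC (3.14 to 3.85). The EC cells of E9.5 embryo 1 came from liver and intestine alone. For Nnat, E9.5 embryo 2 had 2.72 in HC (others 0.40 to 1.09) and E10.5 embryo 2 had 3.65 in skin mesenchyme (5.14 to 5.98). For H19, E11.5 embryo 2 had 6.63 in somite MC cells (5.0 to 5.56). All are levels on the log2(TPM/10 + 1) scale.

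The difference of epithelium and mesenchyme itself differed between organs by a limma interaction test in 18 cases. Between intestine and liver these were Dlk1 (-3.83), Mest (2.24), Peg3 (2.87) and Plagl1 (3.11). Between intestine and lung they were Dlk1 (-1.90) and Peg3 (2.38), and between intestine and skin H19 (-1.87), Igf2 (-1.84) and Peg3 (2.25). Between liver and lung they were Nnat (-2.79) and Plagl1 (-1.96), between liver and skin Dlk1 (2.68), H19 (-2.35), Igf2 (-2.52), Meg3 (2.91), Nnat (-3.77) and Plagl1 (-4.23), and between lung and skin Plagl1 (-2.27).

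The 97 cells that the study left out, with a median of 9499 UMIs, also held all 10 genes above the 0.248 TPM that a count of 3 in their summed UMIs gives. Their pooled levels were 1174 TPM for Cdkn1c, 951 for Igf2, 907 for H19, 548 for Nnat, 344 for Mest, 187 for Meg3, 62.8 for Plagl1, 56.1 for Peg3, 18.6 for Dlk1 and 10.3 for Peg10. In the kept cells pooled in the same way, Cdkn1c was at 304 TPM, Igf2 at 446, H19 at 462 and Mest at 168. Pooling weights each cell by its UMIs, so the deepest of the left-out cells count most and the values need not be typical of them. Of 1916 cells, 1851 held at least 2000 genes and the study kept 1819, so some left-out cells passed its gene limit. The organs of the 2 pools differ, and no test was made.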

How the results depend on the processing

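Of 86 member calls in 39 contrasts, the replicate block kept 86 and added 11, the collision correction and the identical cells kept 86, thinning and removal of globin UMIs 85, no filter 84, at least 5 cells 83, log2(TPM + 1) 82, leaving out an embryo 73 to 82, edgeR 66 and HiSeq 4000 embryos 66. The block changed no other call than those given with the results. For all genes, counts of calls moved by more than 1.5 times in 29 of 39 contrasts with log2(TPM + 1) (ratios 1.12 to 11.2), in 32 with edgeR (0 to 9.19) in 14 with HiSeq 4000 embryos and in 4 of 5 with E9.5 embryos only (0.31 to 0.673). H19 in HC turned to 1.07 with edgeR. The causes were not tested. Liver mesenchyme has 3 embryos, or 1 on the HiSeq 4000, and sets of few cells limit the precision for low genes such as Peg10.

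Counts of members called moved by more than 1.5 times as follows. With log2(TPM + 1) they were 5 in NC, 2 for somite, 1 for the mean slope and the heart slope, and 2 for the slopes of lung and skin epithelium, forebrain and hindbrain. With at least 5 cells they were 1 for liver minus lung, 2 for the forebrain slope and 1 for the mean slope, without a filter 1 for intestine minus lung, and with thinned cells 1 for intestine minus lung, 1 for the lung epithelium slope and 2 for the hindbrain slope. The replicate block gave 2 for lung epithelium, 3 for lung minus skin and 2 for the forebrain slope.

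With edgeR they were 6 in NC, 0 for lung epithelium, intestine mesenchyme, lung mesenchyme, intestine minus lung and liver minus lung, 2 for intestine minus liver, 3 for lung minus skin, 2 for somite, 1 for forebrain against hindbrain, 1 for the intestine epithelium slope, 2 for the liver epithelium slope, 0 for the slopes of skin epithelium, intestine mesenchyme and lung mesenchyme, and 1 for the mean slope and the brain slope difference. With HiSeq 4000 embryos they were 4 for lung epithelium and intestine mesenchyme, 1 for skin mesenchyme and intestine minus lung, 2 for intestine minus liver, 3 for liver minus skin and lung minus skin, 2 for somite, 1 for forebrain against hindbrain and the lung epithelium slope, 2 for the lung mesenchyme slope, and 0 for the slopes of liver epithelium, skin epithelium, forebrain and hindbrain. With E9.5 embryos only, chosen after seeing the data and run for the 5 contrasts that involve liver mesenchyme, they were 2 for liver mesenchyme, intestine minus liver and liver minus skin and 0 for liver minus lung, and 9 of their 20 member calls were kept.

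Leaving out an embryo gave 0 to 3 for lung epithelium, 2 to 4 for liver mesenchyme, 0 to 1 for lung mesenchyme, 0 to 2 for intestine minus lung, 1 to 4 for intestine minus skin, 1 to 2 for liver minus lung, lung minus skin, somite and the forebrain slope, 0 to 2 for the hindbrain slope, and 0 to 1 for forebrain against hindbrain, the mean slope and the slopes of intestine, liver, lung and skin epithelium and of intestine, lung and skin mesenchyme.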
